A study of Mus musculus with 9 samples.

Results

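mmu-miR-135a-5p and mmu-miR-135b-5p, the 5p arms of the mouse miR-135 family, were followed through 3 cell populations of the embryonic mouse cortex. They were picked by mature name, and both names were found among the 1052 miRNAs kept from the deposited count table. The table held 3 rows for them: miR-135a-5p had a row for each of its 2 precursor genes and miR-135b-5p had 1 row. All 9 libraries came from the lateral cortex of C57BL/6 embryos at embryonic day 14.5, dissociated and sorted by reporter fluorescence, with 3 libraries per population and no treatment named. By their titles, proliferating progenitors lacked both reporters, called R and G, differentiating progenitors showed R without G, and newborn neurons showed G. The labels name neither the promoters that drive the reporters nor the number of embryos per library. Nothing says that replicates came from separate litters, so p-values measure the spread between these libraries, which may be technical.

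A mature miRNA guides the silencing complex to messenger RNAs that pair with its seed, the bases near its 5′ end, and paralogs that share a seed can act on the same targets. The miR-135 family is known for repressing APC, a negative regulator of Wnt signalling, and Klf4, a transcription factor that restrains axon growth. The populations represent successive stages of cortical neurogenesis, from dividing stem-like cells through neuron-producing progenitors to postmitotic neurons. The question asked of the family is whether either member is highest in the middle population.

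The RefSeq sequence of mature miR-135a-5p is shown because both of its precursor genes give the same 23 bases. The 3p arms of these precursors are shown because they differ from each other. Sequences run 5′ to 3′, and the capitals mark the seed, bases 2 to 8.
miR-135a-5p: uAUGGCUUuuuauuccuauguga
miR-135a-1-3p: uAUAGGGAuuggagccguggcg
miR-135a-2-3p: uGUAGGGAuggaagccaugaa
The 5p arm therefore cannot be assigned to a gene, whereas the 3p arms carry different seeds, AUAGGGA and GUAGGGA. The count table holds no row for these 3p arms, so they could not be analysed. Among the 895 of 1059 mature names in the count table that matched a RefSeq sequence, 0 others carried the seed AUGGCUU; miR-135b-5p is not among these 895.

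On GRCm38.p6, miR-135a-5p lies at chr9:106154140-106154162 on the plus strand in Mir135a-1 and at chr10:92072141-92072163 on the minus strand in Mir135a-2. The Mir135a-1 hairpin (chr9:106154124-106154213) falls, in GENCODE M21, in an intron of the antisense RNA gene D030055H07Rik. On the opposite strand it falls inside an exon of Glyctk, the gene of glycerate kinase, in untranslated sequence. The Mir135a-2 hairpin (chr10:92072086-92072185) is in an intron of Rmst, a long noncoding RNA known for its role in neural differentiation, on the same strand. The Mir135b hairpin (chr1:132198088-132198184, plus strand) is in introns of the overlapping protein-coding genes Lemd1 and AC124108.1, both also on the same strand. The members thus come from 3 separate loci on 3 chromosomes.

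Both rows of miR-135a-5p counted nearly the same reads. They differed by at most 4 counts in any library and by 16 counts over the 9 libraries, or 0.215% of the larger total. The larger row was used, and the counts do not show how much each gene contributed.

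miR-135a-5p had its highest mean in differentiating progenitors. It rose from proliferating to differentiating progenitors by 1.68-fold, and its lower mean in newborn neurons did not pass the test. Under 19 alternative settings the first call was lost in 7, and the lower mean in neurons became a call in 5. miR-135b-5p followed another course: it did not pass the test at the first step, rose 1.87-fold from differentiating progenitors to neurons, and was 2.12-fold higher in neurons than in proliferating progenitors. Its lowest level was in proliferating progenitors and its highest in neurons. Levels are given in CPM, each count divided by its library's total and multiplied by 1000000, with totals adjusted by TMM for differences in composition. Changes were tested with edgeR's quasi-likelihood test on all 9 libraries, and a miRNA is called at a Benjamini-Hochberg adjusted p under 0.05 over the 188 miRNAs tested. In sorted bulk cells, fewer cells holding a miRNA and less of it per cell cannot be told apart.

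Proliferating replicates 1 to 3 held 500, 514 and 234 counts of miR-135a-5p, or 379, 526 and 306 CPM. In differentiating progenitors it had 1054, 909 and 675 counts, or 753, 801 and 481 CPM. In newborn neurons it had 2116, 990 and 457 counts, or 545, 522 and 351 CPM. The values of the 3 populations overlap, because replicate 3 of the differentiating progenitors lies below replicate 2 of the proliferating progenitors and below replicates 1 and 2 of the neurons. Replicate 3 was the lowest library for this miRNA in each of the 3 populations. The means were 404 ± 112, 678 ± 173 and 473 ± 106 CPM in that order of the lineage (SD, n = 3 each). This placed miR-135a-5p at rank 56, 42 and 51 of the 188 tested miRNAs by level.

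Of miR-135b-5p, the proliferating libraries held 261, 213 and 178 counts, or 198, 218 and 233 CPM. Differentiating libraries held 376, 276 and 313 counts, or 269, 243 and 223 CPM. Neuron libraries held 1803, 957 and 521 counts, or 464, 505 and 400 CPM. All 3 neuron libraries lie above all 6 progenitor libraries, while both progenitor populations overlap. The means were 216 ± 17.6, 245 ± 22.9 and 457 ± 52.7 CPM (SD, n = 3 each), at ranks 63, 61 and 52.

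**Figure D1:**
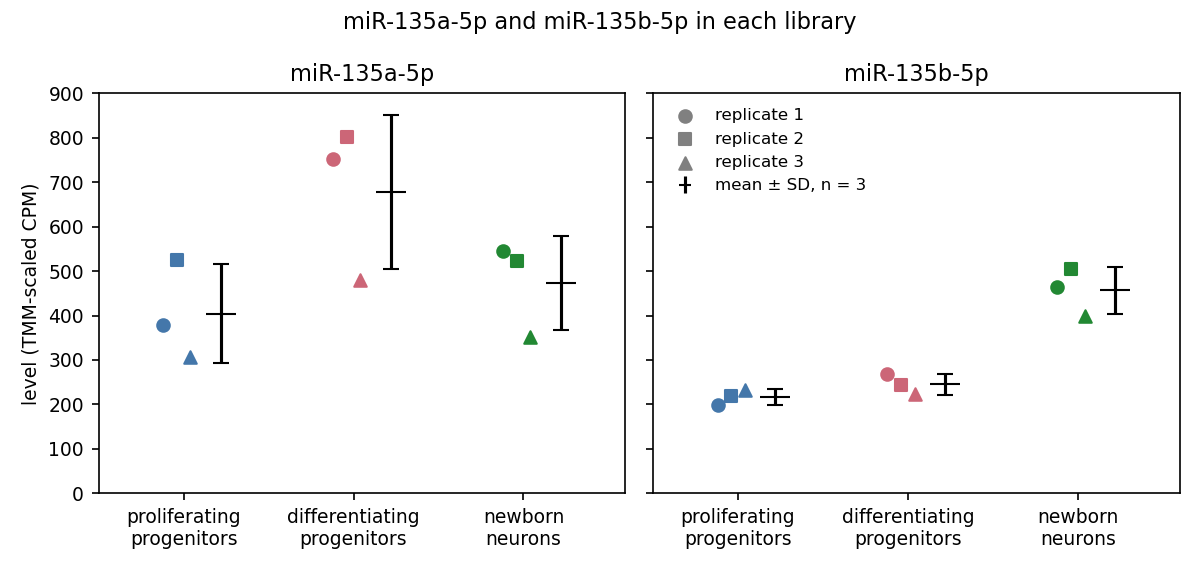
Level of miR-135a-5p (left) and miR-135b-5p (right) in TMM-scaled CPM in the 3 populations; each symbol is 1 library, its shape gives the replicate number, and the black bar is the mean ± SD of 3 libraries. miR-135a-5p has its highest mean, 678 CPM, in differentiating progenitors, with 1 library at 481 CPM, and the neuron libraries of miR-135b-5p, at 400 to 505 CPM, lie above all progenitor libraries, at 198 to 269 CPM.

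Counting error was far smaller than the spread between libraries for miR-135a-5p, and less so for miR-135b-5p. Taken as the inverse square root of the count, it ran from 2.17% to 6.54% of the value for miR-135a-5p and from 2.36% to 7.50% for miR-135b-5p. The SD between libraries was 22.4% to 27.6% of the mean for miR-135a-5p and 8.15% to 11.5% for miR-135b-5p. In proliferating progenitors the counting error of miR-135b-5p, 6.19% to 7.50%, came near its SD of 8.15%. edgeR's biological coefficient of variation was 0.201 for miR-135a-5p and 0.134 for miR-135b-5p. The same difference between populations was thus estimated less precisely for miR-135a-5p. As a share of all counted miRNA reads, miR-135a-5p ran from 0.0285% (95% Wilson interval 0.0251% to 0.0324%) in proliferating replicate 3 to 0.0803% (0.0753% to 0.0857%) in differentiating replicate 2. miR-135b-5p ran from 0.0197% (0.0175% to 0.0223%) in proliferating replicate 1 to 0.0509% (0.0478% to 0.0543%) in neuron replicate 2. PCR copies of a molecule are counted as separate reads, so these intervals cover the counting error alone. The count table lists mostly 5p arms, with 925 rows named 5p and 114 named 3p, so shares and ranks hold within it.

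Between proliferating and differentiating progenitors, the first step, miR-135a-5p was called. Its log2 change was 0.75 (SE 0.23, 95% interval 0.26 to 1.23, edgeR adjusted p = 0.0345), and 8 of the 9 pairs of a differentiating and a proliferating library had the higher value in the former. Of all 188 miRNAs, 16.0% were called at this step, 7.98% of all as higher, and the median log2 change was 0.08. Of the miRNAs, 32.4% had values that did not overlap between both populations, whereas the values of both members overlapped. The call was lost with library totals taken as total counts without miR-9-5p (0.69, edgeR adjusted p = 0.0545). Keeping the predicted rows, those without an accession, also ended it (0.71, edgeR adjusted p = 0.157). It was lost without proliferating replicate 1 (log2 change 0.70, edgeR adjusted p = 0.131) or replicate 3 (0.59, adjusted p = 0.141). It was also lost without differentiating replicate 1 (0.66, adjusted p = 0.0922) or replicate 2 (0.63, adjusted p = 0.142), or without neuron replicate 1 (0.76, adjusted p = 0.0608). Without differentiating replicate 3, the lowest of its population, the change was 0.93 (edgeR adjusted p = 0.00699). miR-135b-5p was not called at this step (log2 change 0.18, SE 0.16, edgeR adjusted p = 0.484), and the 95% interval, from -0.16 to 0.53, includes changes from 0.894-fold to 1.44-fold.

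Between differentiating progenitors and newborn neurons, the second step, miR-135b-5p was called and miR-135a-5p, with a change of the opposite sign, was not. miR-135b-5p rose by a log2 change of 0.90 (SE 0.16, 95% interval 0.56 to 1.24, edgeR adjusted p = 0.000212), with all 9 pairs of libraries higher in neurons. Of all miRNAs, 46.3% were called at this step, 23.9% of all as higher, and for 49.5% the libraries did not overlap. For miR-135a-5p the log2 change was -0.52 (SE 0.23, 95% interval -0.99 to -0.04, edgeR adjusted p = 0.0744), with 2 of 9 pairs higher in neurons. At this step 22.3% of all miRNAs were called as lower. The unadjusted p of miR-135a-5p was 0.0364, and 52.1% of all miRNAs had an unadjusted p under 0.05 here. The adjusted p was 0.0229 without differentiating replicate 3 and 0.0385 without proliferating replicate 2.

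Over both steps, the log2 change of miR-135b-5p from proliferating progenitors to neurons was 1.08 (SE 0.16, 95% interval 0.74 to 1.42, edgeR adjusted p = 2.16e-05), and again the libraries did not overlap. In this comparison 56.4% of all miRNAs were called, 29.8% of all as higher, and the libraries of 64.4% did not overlap. Its change ranked 43 from the top among the 188 changes, so that larger rises were common in neurons. miR-135a-5p was not called (log2 change 0.23, SE 0.23, 95% interval -0.25 to 0.71, edgeR adjusted p = 0.419). Its change was 0.07 without proliferating replicate 3, 0.46 without proliferating replicate 2 and 0.40 when scaled by total counts, and it was not called in any of these fits. Ordered by level, neither neighbouring pair of populations was called for miR-135a-5p, proliferating progenitors below neurons and neurons below differentiating progenitors, and the pair at both ends was. For miR-135b-5p the progenitor populations, neighbours in its order, were not called and neurons were called against each.

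A peak in the middle population was examined directly, as differentiating progenitors against the mean of both other populations. For miR-135a-5p the log2 change was 0.63 (SE 0.19, 95% interval 0.22 to 1.04), the 8th largest of the 188 values, with an unadjusted p of 0.00470 and an edgeR adjusted p of 0.0514. It lies just outside the threshold, which 7.98% of the miRNAs passed, 4.26% of all as higher. The adjusted p was 0.00678 without proliferating replicate 2 and 0.0128 without differentiating replicate 3, and it reached 0.221 without differentiating replicate 1. The stricter demand of a called rise at the first step and a called fall at the second was not met, and 0.532% of the miRNAs met it. It was met in 5 of 19 alternative settings. These were the fits with no filter on low counts, with the replicate number as a block and of only the 2 populations compared. The others were the fits without proliferating replicate 2 and without differentiating replicate 3. A highest mean in differentiating progenitors is itself frequent, since 23.9% of the miRNAs had it. miR-135b-5p did not have it: against the mean of both others its log2 change was -0.36 (SE 0.14, 95% interval -0.66 to -0.06, edgeR adjusted p = 0.116). Tested jointly for a difference of any kind between populations, both members were called, with edgeR adjusted p-values of 0.0244 and 2.56e-05, as were 58.5% of the miRNAs.

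**Figure D2:**
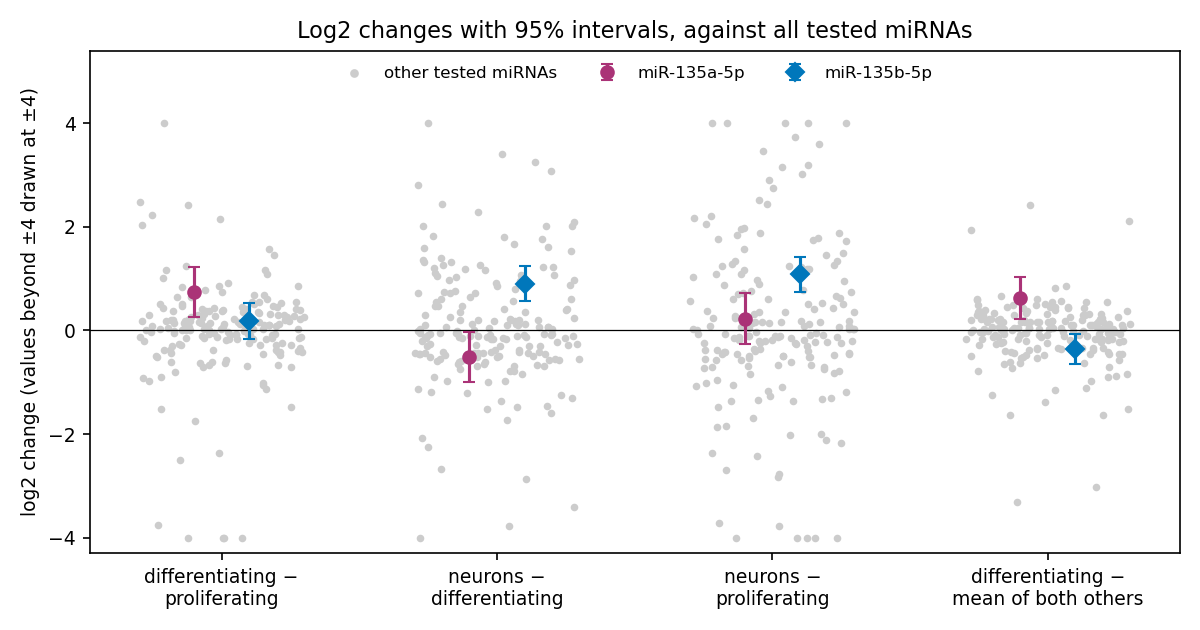
Log2 change of miR-135a-5p (circles) and miR-135b-5p (diamonds) with 95% intervals in 4 comparisons, over the values of the other tested miRNAs in grey, which are spread sideways for visibility. The interval of miR-135a-5p lies above 0 at the first step (0.26 to 1.23) and against the mean of both others (0.22 to 1.04). That of miR-135b-5p lies above 0 in both comparisons of neurons. Below 0 lie the second-step interval of miR-135a-5p (-0.99 to -0.04) and that of miR-135b-5p against the mean of both others (-0.66 to -0.06). Neither member was called against the mean of both others, nor miR-135a-5p at the second step.

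**Figure D3:**
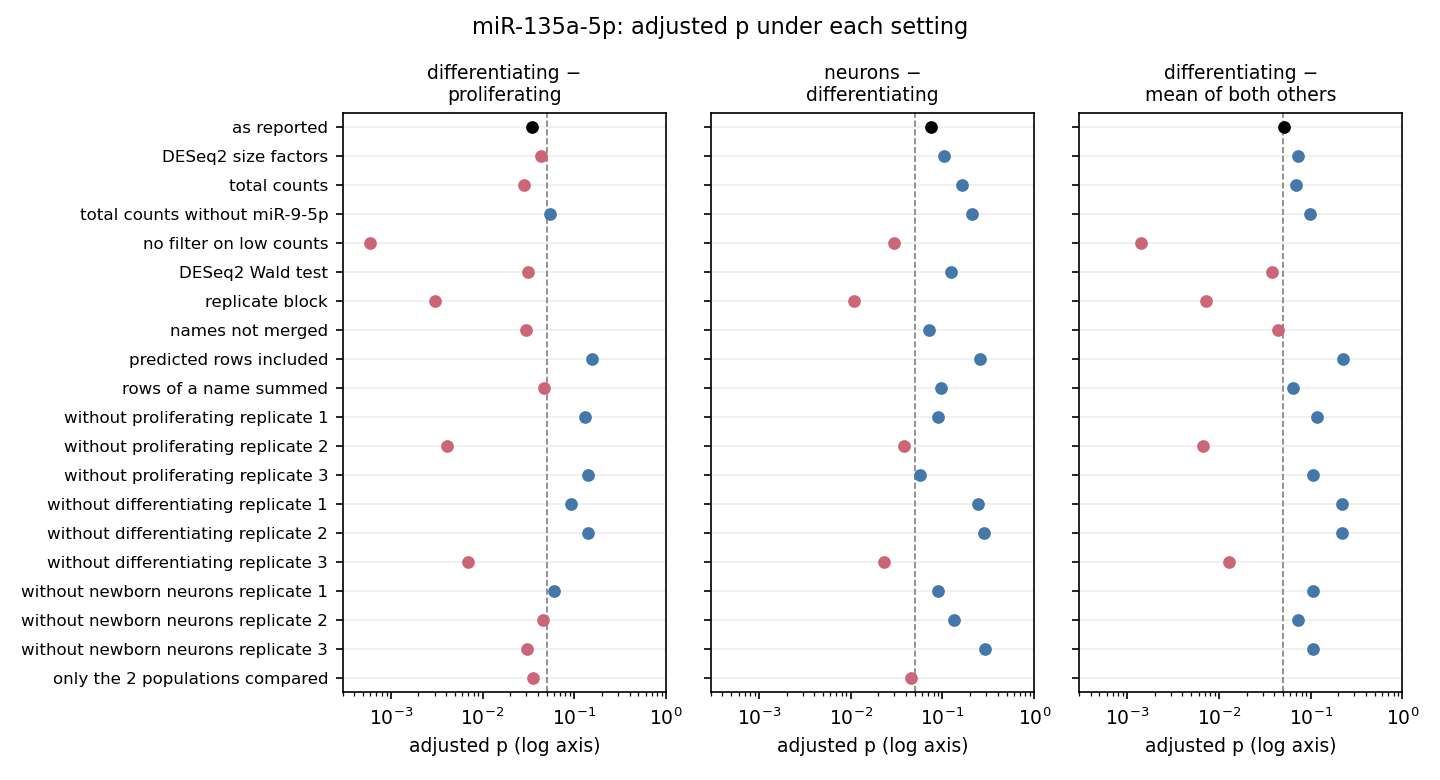
Adjusted p of miR-135a-5p (log axis) in 3 comparisons, as reported (black) and under each other setting; the dashed line is the threshold of 0.05, with red points under it and blue points over it. At the first step the value as reported is 0.0345 and 7 of 19 settings lie over the line; against the mean of both others it is 0.0514, and 6 of 18 settings lie under the line.

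The share of miR-135a-5p in the reads of both members was lowest in the neuron libraries. In proliferating progenitors miR-135a-5p made up 65.7%, 70.7% and 56.8% of the summed counts of both members in replicates 1 to 3. In differentiating progenitors its share was 73.7%, 76.7% and 68.3%, and in newborn neurons 54.0%, 50.8% and 46.7%. The neuron libraries lie below all 6 progenitor libraries, and the progenitor populations overlap. The 95% Wilson intervals of the neuron libraries run from 43.6% to 55.5%, and the lowest bound among progenitor libraries is 52.0%, in proliferating replicate 3. Mean shares were 64.4% ± 7.04, 72.9% ± 4.26 and 50.5% ± 3.66 (SD, n = 3 each). Both members are counted in the same library, so this ratio does not depend on scaling. Reads of different miRNAs are not captured equally in small RNA libraries, so the share describes the reads and not the number of molecules.

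The log2 ratio of miR-135a-5p to miR-135b-5p, with 0.5 added to each count, was 0.87 ± 0.44, 1.44 ± 0.31 and 0.03 ± 0.21 in the 3 populations (SD, n = 3 each). It was 1.41 lower in neurons than in differentiating progenitors and 0.84 lower than in proliferating progenitors (differences of -1.41 and -0.84). Each gave p = 0.1 in a two-sided exact permutation test, the smallest value that 3 libraries against 3 allow (adjusted over the 3 pairs, p = 0.15 by the exact test). The difference between the progenitor populations, 0.57, gave p = 0.2 (exact permutation test, adjusted p = 0.2). Without 1 library this difference ran from 0.33 (without proliferating replicate 3) to 0.77 (without proliferating replicate 2). Replicate 3 had the lowest ratio in each population.

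**Figure D4:**
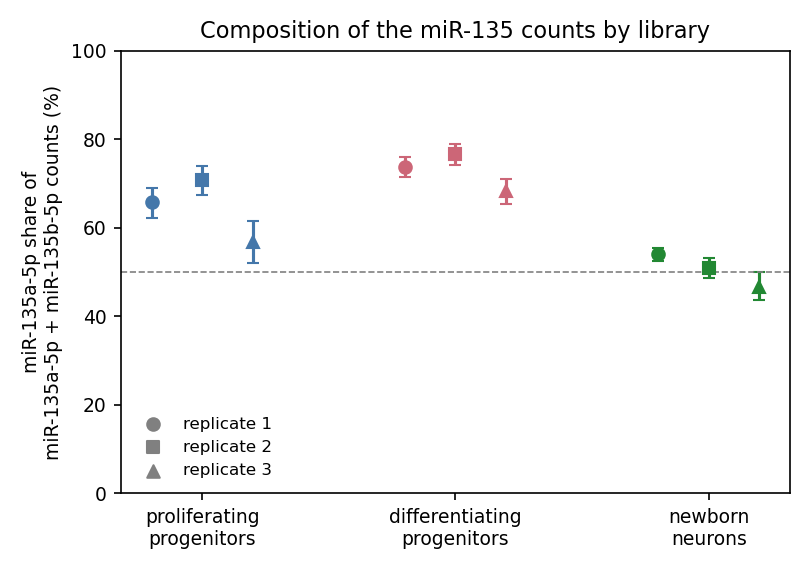
Share of miR-135a-5p in the summed counts of miR-135a-5p and miR-135b-5p in each library, in percent, with 95% Wilson intervals; colours give the populations, shapes the replicate numbers, and the dashed line marks 50%. The 3 neuron libraries, at 46.7% to 54.0%, lie below all progenitor libraries, at 56.8% to 76.7%.

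The summed level of both members was 577, 743 and 539 CPM in proliferating progenitors. It was 1021, 1044 and 704 CPM in differentiating progenitors and 1009, 1028 and 752 CPM in neurons. Means were 620 ± 108, 923 ± 190 and 930 ± 154 CPM (SD, n = 3 each). The sum was thus about as high in neurons as in differentiating progenitors, with a different make-up, and it is given as a description with no test.

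The members' own levels were barely related across the 9 libraries (Pearson r = 0.0479 on log2 CPM), and different miRNAs resembled each of them. The 3 miRNAs most like miR-135b-5p among 166 with at least 10 CPM on average were miR-434-5p (r = 0.984), from the imprinted Dlk1-Dio3 cluster, miR-7a-5p (r = 0.971), a neuronal and endocrine miRNA, and miR-217-5p (r = 0.967). miR-434-5p had means of 194 ± 55.5, 251 ± 23.6 and 757 ± 162 CPM along the lineage (SD, n = 3 each). miR-7a-5p had 3263 ± 526, 5473 ± 381 and 22050 ± 2442 CPM. miR-217-5p was counted 2, 1 and 2 times in the proliferating libraries, 4 times in each differentiating library, and 212, 95 and 75 in neurons. All 3 are highest in the neuron libraries, which largely follows from picking them by correlation with miR-135b-5p. The limit of 10 CPM was met by miR-217-5p only through neurons, with means of 1.72, 3.08 and 54.1 CPM along the lineage. Across libraries of 3 populations such correlations mainly follow the population means, and libraries share depth and scaling.

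The most similar miRNAs for miR-135a-5p were less close: let-7b-5p (r = 0.661), a member of the let-7 family of differentiation-linked miRNAs, miR-30e-5p (r = 0.633) and miR-30a-5p (r = 0.613). let-7b-5p also had its highest mean in differentiating progenitors, with 2834 ± 706, 4125 ± 820 and 2635 ± 281 CPM (SD, n = 3 each). It missed the threshold at the first step (log2 change 0.54, edgeR adjusted p = 0.0514) and fell at the second (log2 change -0.65, edgeR adjusted p = 0.00764). miR-30e-5p and miR-30a-5p were not called in any comparison of 2 populations, with log2 changes between -0.06 and 0.24.

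**Figure D5:**
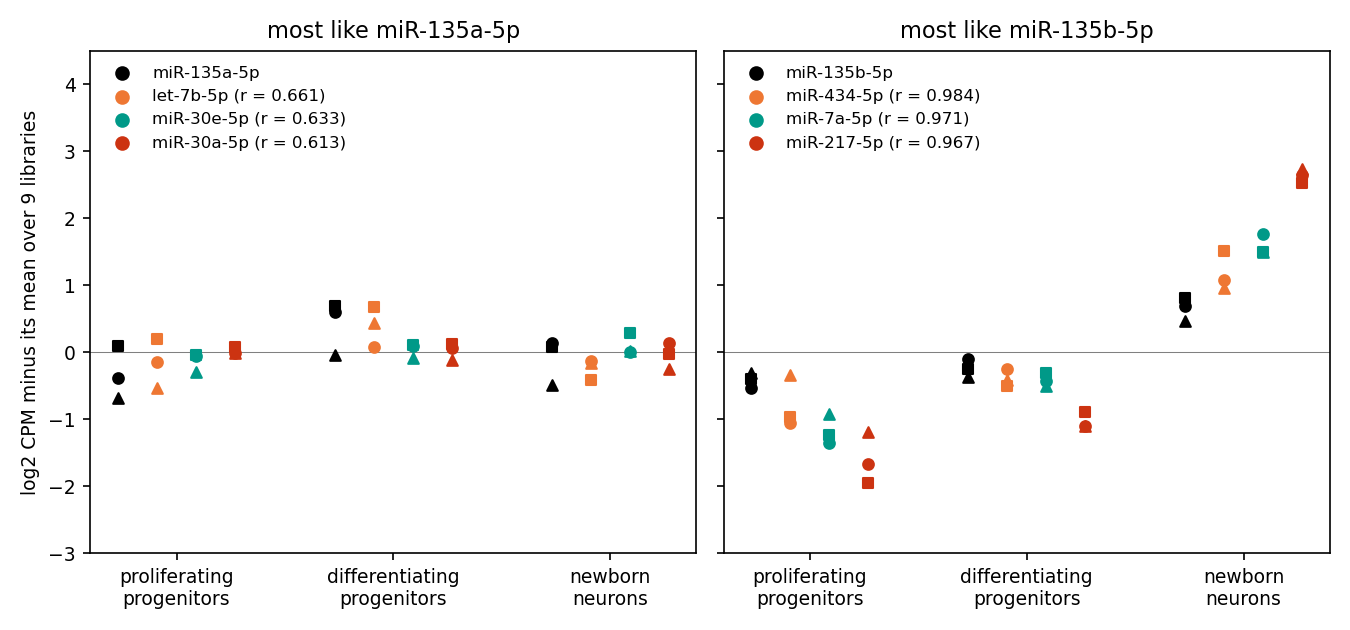
Log2 CPM minus the mean over 9 libraries for each member (black) and the 3 miRNAs most correlated with it (colours, with Pearson r over 9 libraries); each point is 1 library, with circles, squares and triangles for replicates 1, 2 and 3. The miRNAs closest to miR-135b-5p (r from 0.967 to 0.984) are high in the 3 neuron libraries, which largely follows from their selection. Those closest to miR-135a-5p (r from 0.613 to 0.661) differ little between populations or, for let-7b-5p, are highest on average in differentiating progenitors.

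Of the miRNA genes in the RefSeq table, 1 lies within 50 kb of a miR-135 precursor. Its product let-7g-5p, from Mirlet7g, 24627 bases from Mir135a-1, ranged from 17352 to 21998 CPM over all libraries. Its log2 changes were 0.08 and 0.01 at both steps (edgeR adjusted p = 0.711 and 0.966). miR-1251-5p, picked after its counts had been seen because its precursor also lies in an intron of Rmst, 64955 bases from Mir135a-2, was sparse. Proliferating libraries held 11, 7 and 4 of its counts, differentiating libraries 10, 8 and 5, and neuron libraries 23, 7 and 3, and it did not pass the filter on low counts and was not tested. No miRNA gene of the RefSeq table was nearer than 1528374 bases to Mir135b.

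For context, miRNAs linked to cortical neurogenesis were counted in the same fit. The count table holds mostly 5p arms, and every arm it lists for a name was taken, here and for the markers below. Counts and medians describe these rows, such as miR-124-5p, and not arms that the table lacks. Of a neuron-associated list of 11 names, 11 rows were tested: 3 were called higher and 0 lower at the first step, 6 higher and 1 lower at the second, and 7 higher and 0 lower over both. Of all miRNAs, 7.98%, 23.9% and 29.8% were called higher in these comparisons. The median log2 changes were 0.37, 1.32 and 1.85, beside 0.08, -0.06 and -0.05 over all 188 miRNAs. Of its most abundant members, miR-7a-5p rose at both steps (log2 change 0.75 and 2.01, edgeR adjusted p = 0.000944 and 1.27e-08). The member called lower at the second step was let-7b-5p (log2 change -0.65, edgeR adjusted p = 0.00764). miR-9-5p, the dominant cortical miRNA, and miR-125b-5p were called in no comparison of 2 populations, with log2 changes between -0.22 and -0.04. miR-135b-5p, with 0.18 and 0.90, lies below the median of this list at each step.

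Of a progenitor-associated list of 11 names, mostly of the miR-17-92 cluster and its paralogs, 10 rows were tested. At the first step 0 were called higher and 1 lower, at the second 0 and 4, and over both 0 and 5, with medians of -0.15, -0.44 and -0.56. Of all miRNAs, 7.98%, 22.3% and 26.6% were called lower. Of its most abundant members, miR-130b-5p fell over both steps (log2 change -0.70, edgeR adjusted p = 0.00174). miR-20a-5p, miR-17-5p and miR-93-5p were not called in any comparison of 2 populations, with log2 changes between -0.43 and 0.03.

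Markers of other cell types, summed by list, were highest in proliferating progenitors, the reference of the first step. miR-451a and miR-144-5p, the erythroid markers, summed to 260 to 354 CPM in proliferating progenitors, 0.881 to 2.86 CPM in differentiating progenitors and 0 to 2.31 CPM in neurons. The 4 mural rows, mostly miR-143-3p, summed to 437 to 579, 40.0 to 43.4 and 17.7 to 36.3 CPM. The 4 haematopoietic rows summed to 26.2 to 33.7, 12.1 to 19.2 and 0.772 to 1.54 CPM, with miR-142a-5p at 0 counts in each neuron library, which allows up to 0.778 to 2.81 CPM (3 counts). At the first step miR-142a-5p fell from 21.5 to 1.25 CPM (edgeR adjusted p = 1.06e-05), while miR-146a-5p had means of 7.10 and 14.8 CPM (edgeR adjusted p = 0.0966) and made up most of the sum in differentiating progenitors. The endothelial miR-126a-5p ran from 18.4 to 26.2, 11.4 to 12.3 and 5.27 to 12.3 CPM. The part of such cells in the miR-135 levels was not tested. The 6 neuronal markers summed to 4723 to 5851 CPM in proliferating progenitors, 6960 to 8061 in differentiating progenitors and 23691 to 28623 in neurons, highest in the population labelled as neurons. Most of this sum is miR-7a-5p, with means of 3263, 5473 and 22050 CPM. miR-129-5p of the same list ran the other way, with 689, 342 and 213 CPM, and was called lower at both steps (log2 change -1.01 and -0.68, edgeR adjusted p = 0.000875 and 0.00639). Library totals ran from 821155 to 3856484 counts, and the TMM factor of neuron replicate 3, 1.22, stood apart from the others at 0.903 to 1.02.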

How the data were processed

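Small RNA libraries of 9 samples were compared, 3 per population. The authors deposited whole-number read counts per mature miRNA and precursor, not normalised. Per the submitters' processing notes, bcl2fastq 1.8.2, DESeq2 and mm10 were used. The aligner, counting tool and miRNA database release are not given in the sources used here. Of 1433 rows, 222 predicted rows without an accession were left out, the largest row per mature name was kept, and names with at least 50 counts differing by at most 2% were merged (7 groups), leaving 1052 miRNAs. The filter filterByExpr kept 188, with 99.97% of the counts. edgeR 4.0.16 in R 4.3.3 (TMM, estimateDisp, glmQLFit, glmQLFTest) was fitted to all 9 libraries without covariates. Each standard error is the absolute log2 change divided by the root of its F value. On simulated counts for the first step (185 miRNAs tested), 15 of 20 miRNAs changed 1 log2 unit and 20 of 20 changed 2 were called, and 0 of 145 unchanged. Log2 CPM used a prior count of 2. Named miRNAs are the members, miRNAs sharing the seed or lying within 50 kb, the 3 most correlated with at least 10 CPM, and the most abundant of each list. miR-1251-5p and the single marker miRNAs were named after their values were seen. Members and lists were chosen with earlier results of these data known. Alternatives were another scaling (DESeq2 size factors, total counts with and without miR-9-5p), no filter, DESeq2 1.42.0, a block by replicate number, other row choices, fits of 2 populations and leaving out each library.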

Additional observations from a re-analysis of the deposited data

How the results depend on the processing

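For miR-135b-5p the direction and the call, or its absence, were the same under all 19 alternatives in each comparison of 2 populations, and against the mean of both others DESeq2 alone changed its side of the threshold (log2 change -0.37, adjusted p = 0.049). All changes of miR-135a-5p kept their direction. Its call at the first step was lost in 7 of 19 alternatives: with total counts without miR-9-5p (log2 change 0.69, edgeR adjusted p = 0.0545), with predicted rows included (0.71, adjusted p = 0.157), and in 5 of 9 fits without 1 library, which ranged from 0.59 to 0.98. Its lower level at the second step became a call without the filter (-0.48, edgeR adjusted p = 0.0299), with only the 2 populations compared (-0.52, adjusted p = 0.0451) and in 2 of 9 fits without 1 library (range -0.64 to -0.32). Against the mean of both others it became a call without the filter (0.62, adjusted p = 0.00141), with DESeq2 (0.63, adjusted p = 0.0379), with names not merged (0.64, adjusted p = 0.0442) and in 2 of 9 fits without 1 library (range 0.50 to 0.79). The cause was not tested.

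The replicate numbers were not taken as pairs, and whether they mark a shared litter or sort is not given. Of 9 same-numbered pairs of libraries, 4 had deviations from the population means correlated over 0.1 (range -0.0678 to 0.254). Among 18 pairs with other numbers it was 1 (range -0.256 to 0.121). Of 9 libraries, 2 correlated best with their own number in both other populations. These values do not decide whether the numbers mark pairs. With the number as a replicate block, miR-135a-5p was called at the second step (log2 change -0.51, edgeR adjusted p = 0.0108) and against the mean of both others (0.63, adjusted p = 0.00726), and still at the first step (0.75, adjusted p = 0.00304), and the calls in the 4 comparisons numbered 33, 88, 108 and 14.

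Calls over all miRNAs numbered 30 at the first step, 18 to 37 without 1 library (18 without proliferating replicate 1) and 19 with predicted rows. Against the mean of both others they numbered 15, with 8 by total counts, 27 by DESeq2, 6 with predicted rows and 7 to 18 without 1 library (7 without proliferating replicate 3, 9 without differentiating replicate 1, 8 without neuron replicate 1). Of those 15, 8 were higher, against 3 of 8 with total counts and 3 of 15 without miR-9-5p in the totals; at the second step 45 of 87 were higher, against 49 of 75 without miR-9-5p. Total counts moved the median log2 change of all miRNAs by 0.117 at the second step and 0.181 over both, and without miR-9-5p by 0.179 and 0.102. The ratio of the members kept its direction in each of 9 alternatives per pair of populations. Without 1 library the exact permutation test cannot give a p under 0.2.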
